A study of Mus musculus with 5 samples.

Results

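Among 543 SOX4 peaks listed in TNF-treated mouse fibroblast-like synoviocytes (FLS), 211 lay at positions with no earlier peak: their summit had no summit within 50 bp in the SOX4 list or in the RELA list of untreated cells, on chromosomes 1 to 19 and X. The members were chosen by the measured summit positions of 3 peak lists, so their absence from the untreated lists is the rule and not a result. Of the 211 new sites, 73 had a RELA summit of TNF-treated cells within 50 bp (34.6%, 95% interval 28.5% to 41.2%) and 138 had none. Among the 86 new sites whose −log10 q reached 10, the share with RELA was 59.3% (48.7% to 69.1%, 51 sites). The other 332 SOX4 peaks of TNF-treated cells had an earlier summit, from the untreated SOX4 list at 161 and from the untreated RELA list alone at 171.

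The cells were wild-type FLS of C57BL/6 mice, kept in serum-containing medium and either left untreated or given 10 ng/mL TNF for 16 h. Chromatin immunoprecipitation followed by sequencing (ChIP-seq) was done with an antibody to SOX4 or to the p65 subunit RELA, and each list was called against 1 input library from untreated FLS. DNA of 3 cultures was pooled for each library. Each condition was therefore 1 library, no difference has a replicate check, and intervals given here (Wilson for shares, order statistics for medians) cover counting error only. The files hold peaks and no expression, so the cell type could not be checked against its markers.

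SOX4 is a transcription factor of the SoxC group that binds DNA through an HMG box, a domain that sits in the minor groove and bends the helix. RELA is the transactivating subunit of NF-κB, held in the cytoplasm by IκB proteins until signals such as TNF lead to their breakdown. FLS are the mesenchymal cells of the joint lining, which take on an aggressive, tissue-invading state in inflammatory arthritis.

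The sequences of 2 new sites with RELA are shown because they share the highest SOX4 enrichment in that group. Each is the listed peak interval on the plus strand of GRCm38 (mm10).
Grin2a intron, chr16:9751809-9751874: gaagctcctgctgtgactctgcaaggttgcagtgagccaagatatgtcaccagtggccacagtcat
Between genes near Dazl, chr17:50264261-50264325: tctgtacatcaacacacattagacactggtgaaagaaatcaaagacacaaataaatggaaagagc

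From the strongest new sites without RELA, 3 are shown for comparison, and that at Ky appears further on.
Upstream of Gm25415, chr14:89668888-89668948: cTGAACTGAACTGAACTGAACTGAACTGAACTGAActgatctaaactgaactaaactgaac
Upstream of Dock5, chr14:67953123-67953178: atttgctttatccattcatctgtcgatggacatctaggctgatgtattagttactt
Gm41414 intron, chr16:5319322-5319372: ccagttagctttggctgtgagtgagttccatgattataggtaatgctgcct
The capitals at the first of these mark overlapping matches to TTCAGTTCA on either strand.

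The first 4 sites with RELA shared a SOX4 fold enrichment of 10.9 over input. They lay in an intron of Mad1l1 (a spindle checkpoint gene), in an intron of Grin2a (the NMDA receptor subunit GluN2A) and between genes on chromosomes 17 and X. Each held 22 SOX4 reads at the summit against a local background of 1.10 reads. RELA fold enrichment was 8.48 at Mad1l1, 19.5 at Grin2a, 12.0 at the chromosome 17 site and 9.48 at the chromosome X site. Equal SOX4 values thus stood beside RELA values that differed. The site 37584 bp upstream of Tmem215 had a SOX4 fold enrichment of 10.6 and a RELA fold enrichment of 32.0. That in the intron of Izumo1, the sperm protein of egg fusion, had 10.4 for SOX4 and 36.0 for RELA, the highest RELA value of the 73 sites, and lay 3765 bp upstream of Rasip1. Next, both at 9.98, came an intron of Gm13219 and the 5S ribosomal RNA gene n-R5s13.

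Without RELA, the top site lay 37876 bp upstream of the small nucleolar RNA gene Gm25415, with a SOX4 fold enrichment of 10.4 and 21 reads. The next was between genes on chromosome 4 (9.98), followed by the site 19706 bp upstream of Dock5, a guanine exchange factor for Rac, at 9.54. Sites in the coding sequence of the sarcomeric M-band gene Myom2, in an intron of the muscle gene Ky, in an intron of Gm41414 and in a UTR of Gpsm3, a modulator of G protein signalling, all stood at 9.03 with 18 reads. The eighth place was shared by 10 sites at 8.56, among them a site at Sox11.

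The enrichment of new sites ran lower where RELA was absent. The median SOX4 fold enrichment was 8.08 (95% interval 7.61 to 8.56) at the 73 sites with RELA, which ran from 5.09 to 10.9, and 7.13 (6.46 to 7.13) at the 138 without, which ran from 2.56 to 10.4. The groups overlapped over most of this range, and the log2 ratio of the medians was 0.18. When the sites were limited to a −log10 q of 10 or more, this ratio fell to 0.03. In reads at the summit the medians were 18 and 15. Peaks with an earlier summit had a median of 10.5 (9.98 to 10.9) and reached 29.0, whereas no new site passed 10.9. The 24 of those earlier peaks without RELA had a median of 7.94 (7.13 to 9.03), close to new sites, and reached 26.1.

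**Figure D1:**
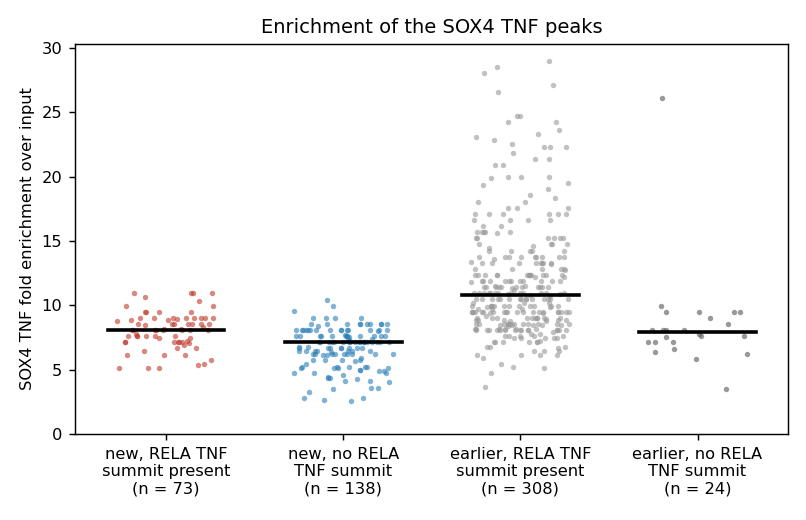
SOX4 fold enrichment over input in TNF-treated FLS (vertical axis, linear from 0) for each listed peak (points, spread sideways at random), with black lines at the medians. New sites have no summit of an untreated list within 50 bp and the remaining ones do ("earlier"). New sites stay at or below 10.9, with medians of 8.08 with RELA and 7.13 without.

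New sites rested on few reads. The fold enrichment and p-value of each SOX4 peak returned a whole number of reads at the summit, between 8 and 29 at new sites with a median of 16, against a median of 23 at peaks with an earlier summit. Earlier peaks without RELA, 24 in all, had a median of 16.5. One read was worth 0.475 in fold enrichment at the genome-wide background, which is why many sites shared a value. The genome-wide background was 0.892 reads in the untreated SOX4 library and 1.10 in the TNF library, a ratio of 0.808. Scaled by that ratio, 210 of the 211 new sites would at equal enrichment have stood at or above 8 reads, the lowest number listed in untreated cells. That lowest number holds for any background, and 86 of the 211 had a local background above the genome-wide one. The count therefore does not show that these sites would have been listed, and the part of read depth was not tested. Among the 125 new sites at the genome-wide background, 119 would have reached 9, the lowest number listed in untreated cells at that background. Every new site had already been listed with TNF at 8 reads or more. Both counts were thus partly set beforehand, and neither shows that the sites would have been listed. Both counts concern the SOX4 libraries only. The rule also used the untreated RELA list, and reads could be solved for none of its 561 peaks, so its depth was not compared. The untreated reads at the new sites are not in the lists, and a site missing from a list is not shown to be unbound.

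**Figure D2:**
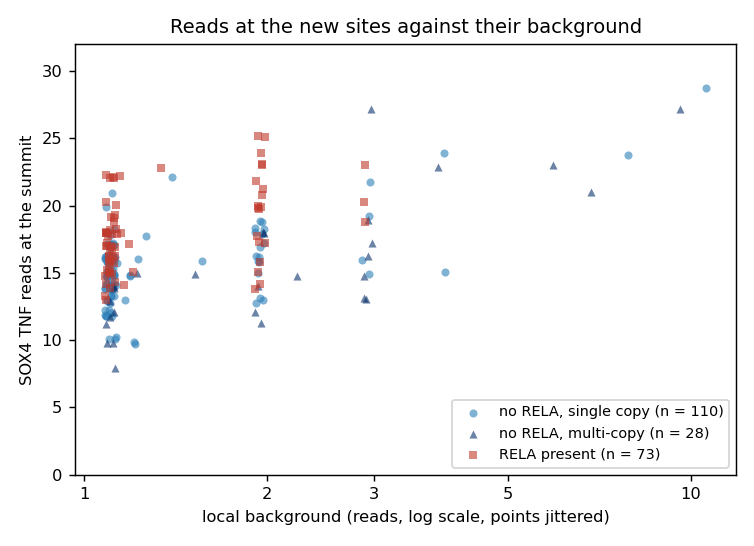
SOX4 reads at the summit in TNF-treated FLS (vertical axis) against the local background of the peak caller (horizontal axis, log scale), 1 point for each of the 211 new sites, shifted slightly at random. Sites with RELA (squares) keep to backgrounds up to 2.92 reads, while the backgrounds of sites without RELA reach 10.7, several of them in sequence with more than 1 copy (triangles).

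New sites were also narrow. Their median width was 52 bp (51 to 53) against 62 bp (60 to 64) at the other SOX4 TNF peaks. Exactly 50 bp, the length of 1 sequencing read, was the width of 77 of the 211 new sites and of 19 of the other 332. At most 52 bp was covered by 56.9% (50.1% to 63.4%) of new sites and by 14.8% (11.3% to 19%) of the others. At the 24 earlier peaks without RELA the share was 45.8% (27.9% to 64.9%), an interval that overlapped that of new sites. Their median width was 53 bp. New sites also had fewer reads than peaks with an earlier summit, a median of 16 against 23. Widths were not compared at equal reads, so the contrasts in reads and width are given as descriptions only. Widths over 100 bp were listed at 5 new sites, all without RELA, and the widest, 129 bp, was that at Sox11.

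Proximity to RELA was nearly all or none. At the 73 sites with RELA the summits of both factors were a median of 5 bp apart, the farthest pair 21 bp, and 40 pairs lay within 5 bp. The next nearest RELA summit was 141 bp away, at Sox4. Only 4 of the 138 others had one within 5000 bp, namely that in Sox4 (141 bp), a site on chromosome 5 (260 bp), one in an intron of Sntg1 (1505 bp) and one in an intron of Cars (1592 bp). At 117 of the 138 (84.8%) the nearest RELA summit was over 100 kb away. Across all SOX4 peaks of TNF-treated cells, 381 of 543 (70.2%) had a RELA summit within 50 bp, and among those with an earlier summit 308 of 332 did. That contrast follows in large part from the rule, which removed sites with an untreated RELA summit, and 464 of the 561 untreated RELA summits were met again in the TNF list. It is given as a description only.

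**Figure D3:**
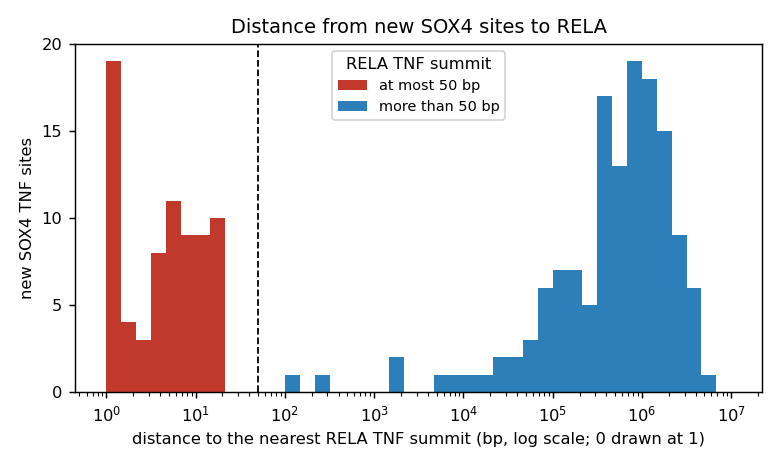
Number of new SOX4 sites (vertical axis) by distance to the nearest RELA summit of TNF-treated FLS (horizontal axis, bp, log scale, with 0 drawn at 1). The 73 sites left of the dashed line at 50 bp end at 21 bp, and the median of the 138 sites to its right is 647615 bp.

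RELA enrichment at the shared new sites spread far more than that of SOX4. It ran from 4.77 to 36.0 with a median of 8.98 (8.48 to 9.98), and was above the SOX4 value at 49 of 73 sites. At peaks with an earlier summit the RELA median was 12.5 (11.5 to 13.5). A RELA fold enrichment of at least 20, a limit set after the values were seen, was reached by 14 sites, whose median for SOX4 was 8.76 against 8.08 at the remaining 59. Among the 14 were sites in introns of Vwf (von Willebrand factor; RELA 32.4, SOX4 8.08) and Dgki (a diacylglycerol kinase; RELA 35.4, SOX4 7.13). Another lay 6072 bp upstream of Birc5, which encodes survivin (RELA 31.9, SOX4 9.03).

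**Figure D4:**
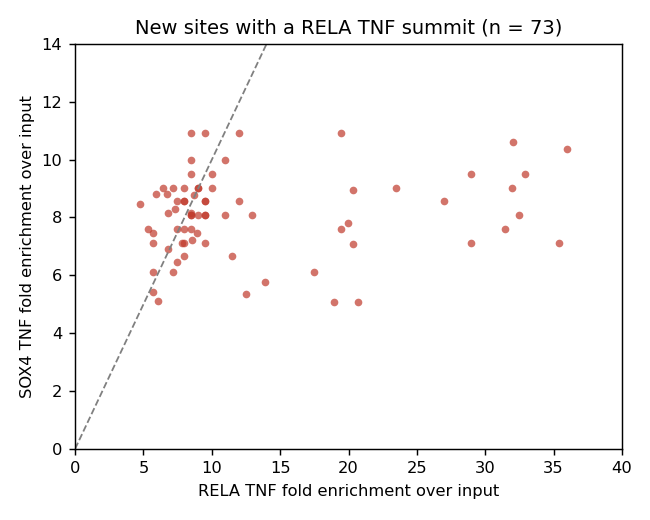
SOX4 fold enrichment (vertical axis) against RELA fold enrichment (horizontal axis), both over input in TNF-treated FLS, at the 73 new sites with both summits. The dashed line marks equal values, which come from different antibodies and libraries. SOX4 stays between 5.09 and 10.9 while RELA runs from 4.77 to 36.0.

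Introns held 82 of 211 (38.9%, 32.5% to 45.6%), the 50 kb upstream of a gene held 74 (35.1%, 29.0% to 41.7%), and 38 (18%, 13.4% to 23.8%) had neither. Coding sequence held 5, UTRs 5 and other exons 7. These shares depended on the order and reach of the classes. With upstream regions taken before gene bodies, introns held 18% and upstream regions 62.6%, and with a reach of 5 kb the upstream class held 8.06% and no class 45.0%. By presence of RELA, introns held 41.1% (30.5% to 52.6%) with and 37.7% (30% to 46%) without, and the upstream class 32.9% (23.2% to 44.3%) and 36.2% (28.7% to 44.5%). These intervals overlapped, as did those of the other SOX4 TNF peaks for introns (43.7%, 38.4% to 49.1%) and the upstream class (26.8%, 22.3% to 31.8%). The 5 UTR sites were all without RELA, and 0 of 73 allows a share of up to 4.11%. The median distance to the nearest annotated transcription start site (TSS) was 15279 bp (11230 to 18470), and 54301 bp (38883 to 79761) to that of a protein-coding gene.

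**Figure D5:**
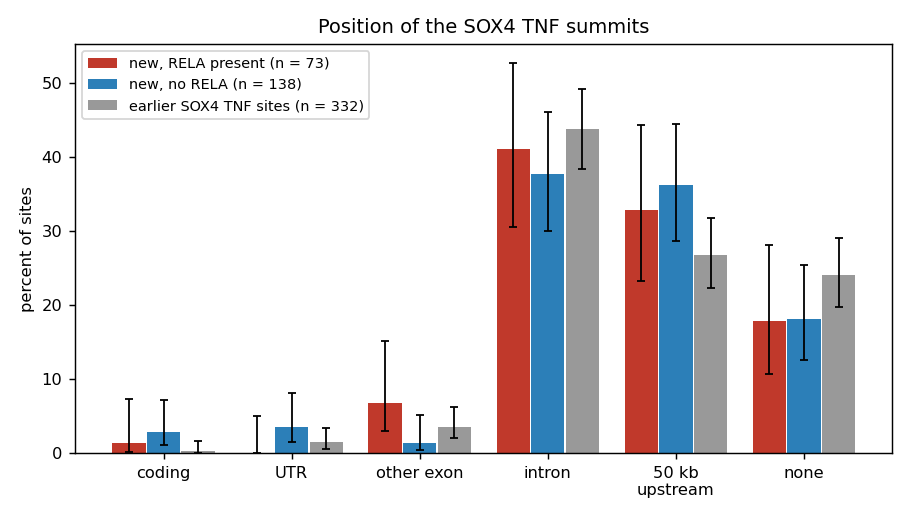
Share of sites (vertical axis, percent) in each position class (horizontal axis) for new SOX4 TNF sites with RELA, without RELA, and SOX4 TNF peaks with an earlier summit. Bars are shares and lines are 95% Wilson intervals. Introns and the 50 kb upstream class hold most sites in each group, and intervals overlap within each of these classes.

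Within 1 kb of the TSS of a protein-coding gene there were 3 of 211 new sites (1.42%, 0.485% to 4.10%), and 6 of the other 332 SOX4 TNF peaks (1.81%, 0.831% to 3.89%), intervals that overlapped. That at Egln1, the prolyl hydroxylase that marks HIF for breakdown, was in coding sequence 436 bp from the TSS, with SOX4 at 9.51 and RELA at 8.48. The site in the UTR of Gpsm3 was 99 bp from the TSS without RELA, and that in an intron of the major urinary protein gene Mup12 was 971 bp away, at 6.18, in sequence with 4 copies.
Egln1 coding sequence, chr8:124948865-124948918: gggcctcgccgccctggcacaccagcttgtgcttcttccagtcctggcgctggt
The other coding sites, none with RELA, were in Myom2 (9.03), the deubiquitinase gene Usp17la (8.56), Gm7361 (6.65) and the zinc finger gene Zfp420 (5.77). Beside Sox4, Sox11 and Gpsm3, UTR sites lay in the GTPase gene Gnl1 (8.56) and in Spib, an ETS family gene (7.13). Other exons of protein-coding genes held the sites in Mbtps1, the site-1 protease (7.61), and the carrier gene Slc35f6 (8.08). Exons of noncoding genes held 1 site in Gssos2 (SOX4 7.08, RELA 20.3), 1 in Gm24105 (SOX4 5.09, RELA 20.7) and 3 in ribosomal RNA genes described further on.

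The sites at the SoxC genes stood at the edge of the rule. In Sox11 the summit in the UTR (chr12:27340695-27340823, SOX4 8.56, 17 reads) was 82 bp from an untreated RELA summit. In Sox4 the UTR summit (chr13:28951291-28951354, SOX4 4.96, 10 reads, local background 1.22) was 201 bp from an untreated RELA summit, and also lay in an exon of the lincRNA Gm26735. Both peak intervals overlapped an untreated RELA peak, and both would leave the set if overlap of intervals replaced summit distance, which keeps 209 sites. A stronger SOX4 TNF peak in Sox4 (8.82) was 33 bp from an untreated RELA summit and so was no member. Just inside the limit stood sites at 28, 33 and 46 bp and just outside it sites at 82, 144, 201 and 247 bp, after which the next earlier summit was 8296 bp away. At 200 of the 211 sites it was over 100 kb away. At Thsd1, a thrombospondin type 1 domain gene, the intronic site had no RELA summit within 50 bp (SOX4 8.39, 18 reads, local background 1.27).

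In all, 369 annotated genes had a new site in the body or in the 50 kb upstream, which is 0.685% of the 53843 genes on these chromosomes, and 172 of them were protein-coding (0.792% of 21728). Of 9 gene lists for this cell type and treatment, with 361 genes, 4 genes had one. These were Sox4 and Sox11 among 19 SOX family genes, Lama2 among 52 extracellular matrix and protease genes, and Tgfbr3 among 58 genes of TGF-beta, BMP and Wnt signalling. None of the 232 genes of the other 6 lists had one: NF-κB pathway, TNF-induced cytokines and chemokines, MAP kinase and AP-1, chromatin coregulators, synovial fibroblast markers and cadherins. With a share of only 0.792% over all protein-coding genes, this count does not show that new sites avoid these lists. The site in an intron of Lama2, the laminin alpha 2 chain, had SOX4 at 6.12 and RELA at 17.5. The site 44580 bp upstream of Tgfbr3, the co-receptor betaglycan, had SOX4 at 5.10 without RELA.

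Genes that TNF regulated in a SoxC-dependent manner, a list the study drew from its own RNA-seq of SoxC-deleted FLS, had 4 members with a new site of 617 matched (0.648%), close to the 0.685% of all genes. They were Lama2, Gm26735, Zfp296 (a zinc finger gene with a site 21408 bp upstream, SOX4 8.56 and RELA 7.48) and Prrt1 (a proline-rich membrane protein, 39628 bp from the Gpsm3 site). With upstream regions cut to 5 kb 2 were left, and by nearest TSS none.

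Sites without RELA were more often in sequence that occurs again in the genome. The 50 bases around the summit had another exact copy at 28 of 138 sites without RELA (20.3%, 14.4% to 27.8%) and at 1 of 73 with it (1.37%, 0.242% to 7.36%). These intervals did not overlap, but they take sites as independent. Multi-copy sites were clustered, with 4 of them in 1 stretch of chromosome 4, so the contrast is a description. Across all SOX4 TNF peaks 40 of 543 (7.37%) were of this kind, new sites included, and among peaks with an earlier summit 11 of 332 (3.31%, 1.86% to 5.83%). Of the 24 earlier peaks without RELA 2 were (8.33%, 2.32% to 25.8%), an interval that overlapped that of new sites without RELA. With 24 bases the shares at new sites were 39.1% (31.4% to 47.5%) without RELA and 24.7% (16.2% to 35.6%) with it, and the intervals overlapped. The 29 multi-copy sites had a median SOX4 fold enrichment of 5.10 and between 2 and 14 copies, and the local background exceeded the genome-wide one at 19 of them. Chromosome 14 held 9 and chromosome 4 held 7.

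On chromosome 4, 4 multi-copy sites fell between 146073565 and 146830963, and 2 of them had the zinc finger gene Zfp987 within 50 kb. Another lay in the major urinary protein gene Mup12, and 1 more was 9659 bp upstream of Mup15. On chromosome 14, 4 new sites, 2 of them multi-copy, fell between 43743279 and 44638728. Upstream of T-cell receptor segments (Trav15n-1) and of immunoglobulin segments (Ighv1-62) there was 1 multi-copy site each. The highest local backgrounds of new sites were 10.7 reads in an intron of D530033B14Rik on chromosome 7, with a fold enrichment of 2.56 and 29 reads, and 9.74 upstream of Gm3269 on chromosome 14, with 2.61 and 27 reads. Of the 23 sites without RELA whose fold enrichment was under 5, 22 had a local background above the genome-wide one and 13 were multi-copy. The part of copy number in these calls was not tested.

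By chromosome, new sites ranged from 3.05 per 100 Mb on chromosome 16 (3 sites) to 14.1 on chromosome 4 (22 sites) and 13.6 on chromosome 14 (17 sites). On chromosome 14, 15 of 17 were without RELA. On chromosome 6, where 13 lay, 9 had RELA. Summit bases were soft-masked as repeats at 61.6% (50.2% to 71.9%) of sites with RELA and 44.2% (36.2% to 52.5%) of those without, intervals that overlapped, against 59.9% (54.6% to 65.1%) of other SOX4 TNF peaks.

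The SOX heptamer (A or T, A or T, C, A, A, A or T, G, on either strand) was no more frequent than nearby. It stood in the 100 bp around the summit at 34 of 211 new sites (16.1%, 11.8% to 21.7%) and in 17.1% (13.8% to 20.9%) of windows 2000 bp to either side. With RELA the share was 19.2% (11.8% to 29.7%) and without it 14.5% (9.58% to 21.3%), and at the other SOX4 TNF peaks 19.3% (15.4% to 23.9%). Of 100 bp windows at annotated RefSeq promoters 7.65% held it. Promoter windows were not matched to new sites in base composition or in distance to a TSS, so their shares are no matched background. The NF-κB decamer was in none of the 211 windows (upper limit of the interval 1.79%). It was in 2 of 422 flanking windows (0.474%, 0.130% to 1.71%) and in 1.30% of promoter windows. The AP-1 heptamer TGANTCA was in 2.84% (1.31% to 6.06%) and in 3.08% (1.81% to 5.20%) of flanking windows. The TEAD hexamer GGAATG was in 8.53% (5.46% to 13.1%) and 5.21% (3.47% to 7.77%), and the RUNX hexamer TGTGGT in 9.95% (6.60% to 14.7%) and 7.11% (5.02% to 9.97%). For each of these words the intervals of new sites and of flanking windows overlapped.

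Other words set new sites apart from their flanks, but they were found by looking at these windows, so their counts are descriptions. The octamer CTGATCAT was found in 7 of 211 new sites and in 0 of the 422 windows beside them. It was in 6 of the 138 windows without RELA, in 9 of 332 windows of other SOX4 TNF peaks and in 3 of 1689 RELA TNF windows with no SOX4. These 1689 are the RELA peaks of TNF-treated cells on chromosomes 1 to 19 and X, 2070 in all, without the 381 that had a SOX4 TNF summit within 50 bp, and the 432 RELA peaks on chromosome Y were left out. The 6 sites without RELA are shown with the octamer or its reverse complement in capitals.
Kcnq5 gene body, chr1:21911955-21912006: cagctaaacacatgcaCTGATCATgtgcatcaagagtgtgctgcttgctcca
Egfem1 gene body, chr3:29121011-29121060: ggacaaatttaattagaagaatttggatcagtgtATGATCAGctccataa
Chromosome 3 site, chr3:71959416-71959465: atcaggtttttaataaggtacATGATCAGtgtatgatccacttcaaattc
Chromosome 3 site, chr3:117178329-117178378: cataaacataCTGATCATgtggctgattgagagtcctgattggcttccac
Lmntd1 gene body, chr6:145563388-145563437: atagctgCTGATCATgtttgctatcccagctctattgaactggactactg
Ky intron, chr9:102515012-102515071: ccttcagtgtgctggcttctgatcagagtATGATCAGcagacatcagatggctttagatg
Each of these 6 summit windows of 50 bases occurs once in the genome.

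Tandem repeats of at least 20 bases were in 15 of 211 windows (7.11%, 4.36% to 11.4%), against 12.3% (9.24% to 16.3%) of other SOX4 TNF peaks. Repeats of the pentamer in TTCAGTTCA stood at 5 of 211 new sites (2.37%), at 10 of the other 332 SOX4 TNF peaks (3.01%) and in 1 of 422 flanking windows of new sites. The new sites with this repeat include the strongest site without RELA, printed above, and those following, with matches on either strand in capitals.
Chromosome 9 site with RELA, chr9:93131946-93132005: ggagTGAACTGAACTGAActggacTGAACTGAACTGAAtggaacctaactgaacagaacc
Chromosome X site without RELA, chrX:95217468-95217552: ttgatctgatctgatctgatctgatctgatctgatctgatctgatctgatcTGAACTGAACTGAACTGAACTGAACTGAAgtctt
Repeats of ATTCC (word ATTCCATTC) stood at 3 new sites, 23 of the other 332 SOX4 TNF peaks and 0 of 422 flanking windows of new sites.

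A further 3 new sites, all with RELA, lay in annotated 5S ribosomal RNA genes (n-R5s), copies of the small RNA of the large ribosomal subunit. SOX4 fold enrichment was 7.13 at n-R5s211, 8.08 at n-R5s204 and 9.98 at n-R5s13, and RELA fold enrichment 9.48, 13 and 11. The intervals are related in sequence.
n-R5s211, chr1:46374245-46374294: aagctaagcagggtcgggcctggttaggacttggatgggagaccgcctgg
n-R5s204, chr2:119631176-119631226: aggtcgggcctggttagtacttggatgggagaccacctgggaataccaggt
n-R5s13, chrX:151777743-151777795: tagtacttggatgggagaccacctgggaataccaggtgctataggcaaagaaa
Over all 211 windows, 32 sites fell into 15 groups that share at least 20 identical bases with another new site, so members are not independent in sequence.

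GCTGAGGCA and TGTAATCCC are forms of the primate Alu consensus, where the mouse B1 repeat reads GCAGAGGCA and TTTAATCCC. GCTGAGGCA was in 3 of 73 windows with RELA, 1 of 138 without and 0 of 422 flanking windows, and TGTAATCCC in 2, 0 and 0. Over all new sites the counts were 4 and 2 of 211 (1.90% and 0.948%), and at the other SOX4 TNF peaks 9 and 8 of 332 (2.71% and 2.41%). The B1 forms were in 1 of 73 windows with RELA each, in 0 of 138 without, and in 2 and 3 of the 422 flanking windows. Every one of these windows with an Alu form and RELA had a RELA fold enrichment of at least 20. In the 1689 RELA TNF windows with no SOX4, GCTGAGGCA was in 9.89% and TGTAATCCC in 11.2%, with the B1 forms in 7.16% and 6.04%. The part of DNA from other species in these reads was not tested.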

How the data were processed

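Peak lists of ChIP-seq were used for 4 conditions (SOX4 or RELA, untreated or TNF), 1 library each. Per the file headers and methods, the authors called peaks in Strand NGS 4.0 (MACS2, p cutoff 1e-05, fragment length 300, dynamic background) on mm10 against the untreated input. The deposited values are −log10 p, −log10 q and a fold enrichment (ratio) for each peak. Read filters before calling are not given in the sources used here. Members and gene and word lists were chosen with earlier results of these data known. Named sites were the 8 highest in fold enrichment with and without RELA, those in exons or within 1 kb of a protein-coding TSS, those at listed genes, at Sox4, Sox11 and Thsd1, and those near the limit.

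Summits were classed with GENCODE M21 in the order coding, UTR, other exon, intron, 50 kb upstream, none. Copies were exact matches to 50 bases in GRCm38. Reads n and local background were solved from fold = (n + 1)/(background + 1) and the Poisson p, which returned whole reads for all 543, 192 and 2502 peaks of 3 lists (tolerance 1e-05 in −log10 p) and for none of the 561 of untreated RELA. No test was run. Some peak sequences and 1 site by name are not reported here. Python 3.11.15, numpy 2.4.6, pandas 2.3.3 and scipy 1.17.1 were used. Scripts were tested on simulated data.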

Additional observations from a re-analysis of the deposited data

How the results depend on the processing

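No paired analysis was possible because there was 1 library for each condition. Of 52 alternatives, 4 of them chosen after seeing the data, 27 left a value within its interval or a count within 1.5 times, 25 moved it, and none turned the direction of the log2 ratio. With only peaks of −log10 q at least 10, 86 new sites remained, 59.3% with RELA, and the log2 ratio of medians was 0.03 (0.49 when −log10 q replaced fold enrichment). At the genome-wide background there were 125 sites. RELA peaks of −log10 q at least 10 gave 28% with RELA, and summits outside soft-masked sequence 26.7%. Windows of 24 bases gave multi-copy shares of 24.7% with RELA and 39.1% without. With upstream regions taken before gene bodies, introns held 18% and upstream regions 62.6%. With 5 kb upstream, that class held 8.06% and no class 45.0%. With protein-coding genes alone, introns held 31.3%, upstream regions 19% and no class 44.1%, and the median distance to a TSS was 54301 bp. Genes assigned numbered 130 with 5 kb upstream, 207 by nearest TSS, 105 by gene body and 172 when protein-coding. SoxC-dependent genes numbered 2 with 5 kb and 0 by nearest TSS. A 200 bp window held the SOX heptamer at 28%, and runs of 30 bases made tandem repeats 4.27%. Beyond the alternatives' own construction the cause was not tested. New sites rest on 8 to 29 reads each, absence from a list is not absence of binding, and with 1 library per condition biological variation was not measured.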
